A study of Mus musculus with 7 samples.

Results

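Expression of 6 genes for synaptic vesicle priming and release, Unc13c, Rims3, Rab3b, Rab37, Sncg and Cplx3, was followed across the neurons of mouse brain hemisections that held the anterior thalamic nuclei. The members were named genes of a 297-gene Xenium panel, an assay that decodes single transcripts in place within segmented cells, and all 6 were measured. They were read in cells with at least 5 transcripts of Slc17a6 (the vesicular glutamate transporter VGLUT2), at least 5 of Slc17a7 (VGLUT1), or at least 5 of Gad1 and Gad2 together (the enzymes that make GABA). Of 384076 segmented cells, 263912 passed at least 1 of these thresholds.

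Transmitter release at a synapse needs vesicles that are docked at the active zone, primed by partial assembly of SNARE proteins, and then fused when calcium enters. Munc13 proteins open the SNARE assembly, RIM proteins hold vesicles and calcium channels together, Rab3 proteins on the vesicle bind RIM, and complexins clamp the assembled SNARE complex and promote its fusion. The genes measured here are mostly less common paralogs within these families.

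All 7 sections came from wild-type mice, with no treatment in the labels, and were 10 µm thick. There were 2 anterior sections (bregma -0.58 mm), 2 intermediate sections (-0.70 to -0.82 mm) and 3 posterior sections (-0.94 mm). The sources used here give no age, sex or number of animals, so p-values measure the spread between these sections, which may in part be technical. Posterior replicates 3 and 4 were on 1 slide, and the other 5 sections were on another.

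Each section gave 50169 to 60720 cells and a median of 278 to 390 transcripts per cell, and 8 of 384068 distinct barcodes occurred in more than 1 section. Cells past exactly 1 threshold were called the VGLUT2 class (19661 cells), the VGLUT1 class (92411) and the GABA class (92349). A further 59491 cells passed more than 1 threshold and are called mixed. The VGLUT2 threshold was passed by 43785 cells, so the VGLUT2 class holds a minority of them. Of these cells, 16397 also passed the VGLUT1 threshold and 11983 also passed the GABA threshold. The VGLUT1 threshold was passed by 144175 cells and the GABA threshold by 139699, and most of them stayed in their class. Posterior replicate 3 stood apart from the other posterior sections: the VGLUT2 class made up 2.77% of its cells, the lowest share of the 7 sections, against 5.56% in posterior replicate 1 and 5.30% in posterior replicate 4. Segmented cells can hold transcripts of their neighbours. Glial and vascular markers made up over 10% of the transcripts in 34.8% of VGLUT2 class cells, 30.5% of VGLUT1 class cells and 38.1% of GABA class cells, against 87.2% of cells past no threshold. Of these lists, astrocyte markers (7 of 8 in the panel) were the most abundant, at 14.7 to 20.5 transcripts per cell in the VGLUT2 class, 10.9 to 16.3 in the VGLUT1 class and 14.3 to 16.9 in the GABA class.

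The windows from 250 bases before to 50 bases after the start site were in the RefSeq promoter table (GRCm38.p6) for 5 of the 6 members, Unc13c, Rims3, Rab3b, Sncg and Cplx3. Those of Rims3 and Cplx3 are shown because these genes had opposite patterns among glutamatergic neurons in the results that follow. The window of Rims3 is chr4:120854549-120854848 on the plus strand and that of Cplx3 is chr9:57606232-57606531 on the minus strand. Capitals mark matches to GGGCGG or its reverse complement CCGCCC (the GC box) and to CAGCTG (an E box, the same on both strands).
Rims3: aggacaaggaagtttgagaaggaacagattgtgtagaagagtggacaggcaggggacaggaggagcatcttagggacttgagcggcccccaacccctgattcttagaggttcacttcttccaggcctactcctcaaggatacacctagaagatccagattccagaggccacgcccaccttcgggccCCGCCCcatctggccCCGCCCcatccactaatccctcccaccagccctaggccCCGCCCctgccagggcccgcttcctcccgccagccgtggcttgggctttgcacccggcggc
Cplx3: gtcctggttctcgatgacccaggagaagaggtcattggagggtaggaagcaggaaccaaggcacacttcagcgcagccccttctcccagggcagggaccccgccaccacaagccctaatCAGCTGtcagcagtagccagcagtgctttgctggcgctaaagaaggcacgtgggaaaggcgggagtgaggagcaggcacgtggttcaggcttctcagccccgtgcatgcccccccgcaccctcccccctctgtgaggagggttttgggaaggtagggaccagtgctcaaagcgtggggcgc
Rims3 had 3 GC boxes and no CAGCTG, and Cplx3 had 1 CAGCTG and no GC box. Rab3b had 4 GC box matches (overlapping matches counted), Unc13c had 1 match of each motif, and Sncg had 1 GC box. The Unc13c window (chr9:73968988-73969287, minus strand) lies inside the gene, which spans 73479422 to 74008155, and so is not at its outermost start. Of 32851 promoters in the table, 35.7% held a GC box and 16.3% held CAGCTG. G and C made up 62.3% of the Rims3 window and 62.7% of the Cplx3 window. These matches describe the letters and are not binding sites.

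Levels are given first as mean transcripts per cell, with the SD over the 7 sections. Rims3, which encodes a small RIM protein of the active zone, was the most abundant in glutamatergic neurons, at 16.2 ± 3.69 in the VGLUT2 class, 6.12 ± 0.553 in the VGLUT1 class and 2.995 ± 0.251 in the GABA class (n = 7 sections each). Its lowest, median and highest sections were 9.81, 17.8 and 21.01 in the VGLUT2 class, 5.46, 5.90 and 6.95 in the VGLUT1 class, and 2.63, 3.05 and 3.32 in the GABA class. The 3 classes did not overlap. At least 1 Rims3 transcript was seen in 98.3% ± 0.735 of VGLUT2 class cells and at least 5 in 81.7% ± 5.84. After each cell was thinned to 200 transcripts, with shallower cells left out, at least 1 was still seen in 96.8% ± 0.922. The cells left out by thinning were 6.06% of the VGLUT2 class, 9.05% of the VGLUT1 class and 12.9% of the GABA class.

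Unc13c, a Munc13 family priming protein, was highest in GABA neurons. Its level was 4.18 ± 0.395 transcripts per cell in the GABA class, 1.74 ± 0.619 in the VGLUT2 class and 0.977 ± 0.181 in the VGLUT1 class. Sections of the GABA class ran from 3.44 to 4.69 (median 4.13), above every section of the VGLUT2 class (1.08 to 2.72, median 1.63) and of the VGLUT1 class (0.728 to 1.16, median 1.01). The ranges of the VGLUT2 and VGLUT1 classes overlapped. In the GABA class 78.9% ± 2.92 of cells held at least 1 transcript, and 69.4% ± 3.40 after thinning. Cells past no threshold held 1.53 ± 0.259 transcripts of Unc13c per cell. Per 10000 panel transcripts they held 84.8 ± 9.24, against 104 ± 10.6 in the GABA class. Their highest section by this share (102.5) lay above the lowest section of the GABA class (90.3), so the ranges overlapped. Their lowest section (72.9) lay above the highest section of the VGLUT2 class (56.2) and of the VGLUT1 class (24.1). By this share Unc13c was therefore not particular to GABA neurons.

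Of the Rab GTPases on vesicles, Rab3b was also highest in the GABA class and Rab37 in the VGLUT2 class. Rab3b, of the Rab3 family that binds RIM, had 2.01 ± 0.239 transcripts per cell in the GABA class (sections 1.73 to 2.45, median 1.97), 1.16 ± 0.709 in the VGLUT2 class (0.472 to 2.39, median 0.831) and 0.994 ± 0.136 in the VGLUT1 class (0.812 to 1.17, median 0.966). The VGLUT2 class spanned nearly the whole range of both other classes. Rab37, a Rab GTPase of secretory granule exocytosis, had 1.23 ± 0.833 in the VGLUT2 class (0.176 to 2.31, median 0.962), 0.329 ± 0.0917 in the GABA class (0.218 to 0.471, median 0.312) and 0.0669 ± 0.0118 in the VGLUT1 class (0.0595 to 0.0923, median 0.0618). In posterior replicate 3 alone, Rab37 of the VGLUT2 class lay below the lowest section of the GABA class, and in the other 6 sections it lay above the highest.

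Sncg and Cplx3 stayed below 1 transcript per cell in every class. Sncg, which encodes gamma-synuclein, a presynaptic and axonal relative of alpha-synuclein, had 0.362 ± 0.0788 transcripts per cell in the VGLUT2 class (sections 0.248 to 0.460, median 0.354), 0.252 ± 0.0371 in the GABA class (0.224 to 0.317, median 0.230) and 0.0602 ± 0.00642 in the VGLUT1 class (0.0543 to 0.0727, median 0.0602). A few cells carried most of it: the 5% of GABA class cells with the most Sncg held 77.4% ± 2.33 of its transcripts, and in the VGLUT2 class the top 5% held 69.2% ± 3.39. Cells past no threshold held 0.271 ± 0.0602 transcripts of Sncg per cell. Per 10000 panel transcripts they held 14.97 ± 1.83, against 7.99 ± 1.54, 6.27 ± 0.794 and 1.30 ± 0.101 in the VGLUT2, GABA and VGLUT1 classes. Their lowest section (12.1) lay above the highest section of any class (10.2), so Sncg was not particular to these neurons. Cplx3, a complexin known from retinal ribbon synapses, was the only member led by the VGLUT1 class, at 0.683 ± 0.0605 (0.604 to 0.766, median 0.687), against 0.182 ± 0.0570 in the GABA class (0.120 to 0.270, median 0.166) and 0.0310 ± 0.00378 in the VGLUT2 class (0.0256 to 0.0365, median 0.0305). The 3 classes of Cplx3 did not overlap. The top 5% of VGLUT1 class cells held 68.8% ± 2.16 of it. Cells past no threshold held 4.89 ± 0.550 Cplx3 transcripts per 10000 panel transcripts, against 4.52 ± 1.39 in the GABA class and 14.8 ± 1.93 in the VGLUT1 class. Control probes put the lowest values in context: their counts per cell, divided by the 6 different control probes seen in a cell at most, give an upper bound on the false count of 1 probe, with a mean of 0.101 per cell in the VGLUT2 class, 0.0474 in the VGLUT1 class and 0.128 in the GABA class. Cplx3 in the VGLUT2 class lay under that bound. Cplx3 in the GABA class (0.182) and Rab37 and Sncg in the VGLUT1 class (0.0669 and 0.0602) lay near it. Posterior replicate 3 of Cplx3 in the GABA class (0.120) lay below the mean bound of 0.128. The bound of the highest GABA section was 0.175. Cplx3 was also below that value in anterior replicates 1 and 2 (0.166 and 0.132) and intermediate replicate 2 (0.138), and above it in the other sections. Folds that involve Cplx3 in the VGLUT2 or GABA class, or Rab37 or Sncg in the VGLUT1 class, are therefore not exact.

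**Figure D1:**
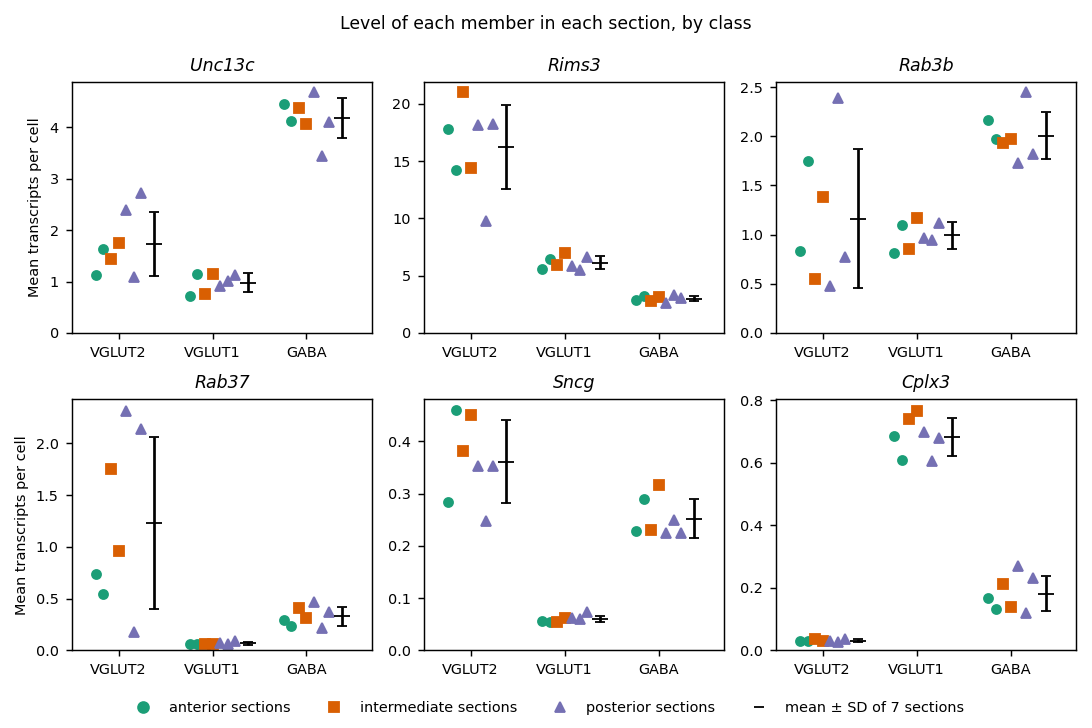
Mean transcripts per cell (vertical axis, linear from 0) of each member in the VGLUT2, VGLUT1 and GABA classes, with 1 point for each of the 7 sections, coloured by position, and the mean ± SD in black. Rims3, Rab37 and Sncg are highest in the VGLUT2 class, Unc13c and Rab3b in the GABA class and Cplx3 in the VGLUT1 class, and posterior replicate 3 gives the lowest VGLUT2 class points of Rims3 and Rab37.

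Cells that passed more than 1 threshold had more transcripts (median 576, against 426, 430 and 375 in the VGLUT2, VGLUT1 and GABA classes). Rab3b was higher in these mixed cells than in any class, at 3.88 ± 0.282 transcripts per cell, with every section (3.53 to 4.26) above every section of the 3 classes. Per 10000 panel transcripts it was 63.7 ± 5.01 in mixed cells and 50.2 ± 7.81 in the GABA class, and there the ranges overlapped (56.1 to 68.3 and 42.9 to 64.4). Rims3 in mixed cells was 9.80 ± 0.593 per cell, between the VGLUT2 and VGLUT1 classes. Whether mixed cells are 1 cell or several under 1 outline was not tested.

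Differences between classes were tested on counts summed per section and class, with edgeR's quasi-likelihood test, the section as a block, TMM scaling and Benjamini-Hochberg adjustment over 293 genes, the 4 genes that set the classes being left out. Log2 differences compare shares of panel transcripts after TMM scaling. Counts of sections higher or lower compare shares without that scaling, so the count and the difference can point in different directions. From the VGLUT2 to the VGLUT1 class, 83.3% of genes passed the threshold of 0.05, 44.7% higher and 38.6% lower. Among the members 5 of 6 passed, 1 higher and 4 lower. Their median difference was -0.999, against 0.09 over all genes tested. Cplx3 rose by 4.56 (SE 0.15, adjusted p = 1.43e-13, higher in 7 of 7 sections). Rab37 fell by 3.81 (SE 0.31, adjusted p = 8.85e-09, lower in 7 of 7), and Sncg fell by 2.47 (SE 0.12, adjusted p = 1.25e-11, lower in 7 of 7). Rims3 was lower by a fold of 2.46 and Unc13c by a fold of 1.62, in 7 of 7 sections each (adjusted p = 1.94e-08 and 0.000132). Rab3b did not pass, at 0.02 (SE 0.25, adjusted p = 0.938), and was higher in 4 sections and lower in 3.

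From the VGLUT2 to the GABA class all 6 members passed, 3 higher and 3 lower, where 75.4% of genes passed, 38.9% higher and 36.5% lower. The members' median was 0.28, against -0.02 over all genes. Cplx3 (2.59, SE 0.14, adjusted p = 8.44e-11), Unc13c (1.40, SE 0.13, adjusted p = 7.90e-08) and Rab3b (1.002, SE 0.25, adjusted p = 0.00171) were higher in the GABA class in 7 of 7 sections. Rims3 fell by 2.34 (SE 0.12, adjusted p = 4.53e-11, lower in 7 of 7). Rab37 fell by 1.59 (SE 0.28, adjusted p = 8.11e-05) and Sncg by 0.44 (SE 0.11, adjusted p = 0.0021), each lower in 6 of 7 sections. The Sncg call ended when class thresholds were set at 3 transcripts (adjusted p = 0.0689), and its adjusted p ran from 0.000372 to 0.0689 over the alternatives.

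From the VGLUT1 to the GABA class all 6 members passed again, 4 higher and 2 lower, where 80.5% of genes passed, 38.9% higher and 41.6% lower. The median was 1.51 for the members and -0.04 for all genes. Rab37 (2.22, SE 0.28), Unc13c (2.10, SE 0.13), Sncg (2.03, SE 0.11) and Rab3b (0.98, SE 0.24) were higher in the GABA class in 7 of 7 sections, with adjusted p from 1.501e-10 (Sncg) to 0.0016 (Rab3b). Cplx3 fell by 1.97 (SE 0.13) and Rims3 by 1.04 (SE 0.11), lower in 7 of 7 sections, with adjusted p = 6.61e-10 and 3.52e-07. With library size in place of TMM, 60% of the called genes were higher, against 48.3% with TMM, and the median over all genes went from -0.04 to 0.18, while all 6 members kept their directions. When mixed cells were kept in each class they passed for, several of the differences above moved toward 0 by over 1.5 times. From VGLUT2 to VGLUT1 Rab37 was then at -2.26 and Cplx3 at 2.69, from VGLUT2 to GABA Unc13c was at 0.79, Rims3 at -1.38 and Cplx3 at 1.68, and from VGLUT1 to GABA Rab37 was at 1.04, Sncg at 1.43 and Cplx3 at -1.01. Cplx3 from VGLUT1 to GABA was at -1.37 with class thresholds of 10 transcripts. Each of these kept its call.

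**Figure D2:**
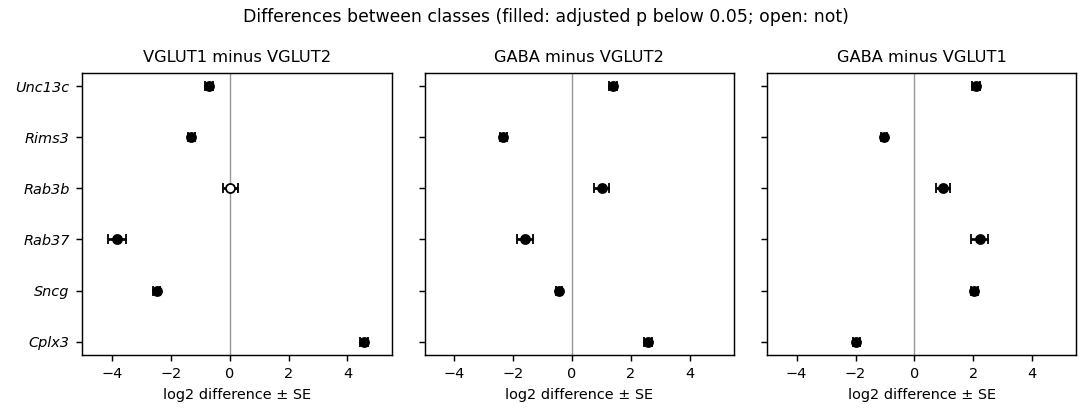
Log2 difference ± SE (horizontal axis) of each member for the 3 comparisons between classes, from edgeR fits of 7 sections. Filled points passed an adjusted p of 0.05. Rab3b from VGLUT2 to VGLUT1, at 0.02, is the open point, and Cplx3 from VGLUT2 to VGLUT1, at 4.56, is the farthest from 0.

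Other synaptic genes, mostly for release and vesicle traffic, were taken from a fixed list of 35, of which the panel held 5. Syt2, Syt6 and Syt17 are of the synaptotagmin family. Syndig1 and Shisa6 encode postsynaptic regulators of AMPA receptors and are not release genes, though the counts below include them. From VGLUT2 to VGLUT1, 1 was higher (Syt6, 1.44, adjusted p = 5.08e-06), 1 was lower (Shisa6, -0.70, adjusted p = 0.017) and 3 did not pass. From VGLUT2 to GABA, 2 were higher, Syt6 (2.97) and Syt2 (1.36), a fast calcium sensor, and 3 were lower, Syt17 (-1.78), Shisa6 (-1.36) and Syndig1 (-0.20). From VGLUT1 to GABA the same directions held, at 1.53 for Syt6, 1.25 for Syt2, -1.54 for Syt17, -0.66 for Shisa6 and -0.29 for Syndig1. Syt2 and Syt6 were thus higher in the GABA class than in either glutamatergic class, as were Unc13c and Rab3b. Syt5, a synaptotagmin of the panel outside the list and named after its values were seen, was lower in the GABA class than in the VGLUT1 class (-0.78, adjusted p = 2.13e-05) and did not pass between GABA and VGLUT2 (-0.02, adjusted p = 0.865).

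To see the members in narrower populations, each class was divided by 1 marker gene that is no member: cells with at least 5 transcripts of the marker (3 for Ccn2) were compared with the rest of the class in the same section. Of 29 gates, 26 held enough cells in every section to be tested. Over these, 115 of 156 member and gate pairs passed. Among all genes tested, the share that passed ran by gate from 18.6% (Pvalb, VGLUT2 class) to 89.7% (Calb1, VGLUT1 class). The members' count is therefore not read as a trait of theirs. Of the member pairs, 87 kept their direction and their call under each of the 10 alternative settings, a count not made for the other genes. Cells past a gate often had more transcripts than the rest, and scaling by library size in place of TMM turned 5 called pairs round. With that scaling the share of called genes that were higher past the gate fell by over 10 percentage points in 17 of the 26 gates, most for the Meis2 gate of the GABA class, from 51.5% to 21.8%. The median over all genes moved most for the Pdyn gate of the GABA class, from -0.12 to -0.83. Counts of members that passed a gate include calls that did not hold under every setting. A single difference given below kept its call and direction under every setting unless stated, and its value under another setting is given where it moved by over 1.5 times. In 26 of the 156 pairs the mean past the gate or in the rest lay under the class's upper bound on false counts (0.101, 0.0474 and 0.128 in the VGLUT2, VGLUT1 and GABA classes), and the size of those differences is not exact. Gates overlap and are not separate cell types.

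In the GABA class, cells with parvalbumin (Pvalb-gated, 20779 cells) stood out for Rab37, Cplx3 and Unc13c. Among all genes tested 86.3% passed for this gate, and all 6 members did. Rab37 was 1.12 ± 0.166 transcripts per cell past the gate and 0.0841 ± 0.00629 in the rest, a log2 difference of 3.72 (SE 0.06, adjusted p = 6.98e-11, higher in 7 of 7 sections). Cplx3 was 0.480 ± 0.123 against 0.0863 ± 0.0147 (2.45, SE 0.12, adjusted p = 3.28e-08). For both genes the level past the gate was above the bound of 0.128 and the level in the rest was under it. Unc13c was 6.16 ± 0.478 against 3.59 (0.77, SE 0.05, adjusted p = 2.34e-07), and its lowest Pvalb-gated section (5.19) lay above the highest section of every other gated population. Without cells rich in glial and vascular markers the difference was 0.17 for Unc13c (adjusted p = 0.0494) and 4.56 for Rab37. Rims3 fell by 0.81 and Sncg by 0.99 on the log2 scale. Pvalb-gated cells had the highest mean Unc13c and the lowest mean Rims3, 1.90 ± 0.0997 per cell, of the 26 populations, the latter overlapping that of Ccn2-gated VGLUT1 cells (1.99 ± 0.113).

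Cells with somatostatin (Sst-gated, 1875 cells) had the highest Rab3b of the 26 populations, 7.89 ± 1.05 transcripts per cell against 1.89 in the rest of the class (1.88, SE 0.11, adjusted p = 2.72e-09, higher in 7 of 7), and the difference was 2.61 with the gate at 10 transcripts. For this gate 79.5% of genes and 6 of 6 members passed. Rab37 (1.34) and Cplx3 (2.02) were also higher, yet with the gate at 10 transcripts they were -0.28 and 0.75 and did not pass (adjusted p = 0.419 and 0.0691). Cells with vasoactive intestinal peptide (Vip-gated, 769 cells), where 56.8% of genes and 4 of 6 members passed, were the GABA population with the least Unc13c, 1.29 ± 0.448 per cell (-1.35, SE 0.12, adjusted p = 1.20e-06). In them Rims3 rose by 1.20 and Rab3b by 0.90, and Rab37 was lower by 1.68, to 0.0855 per cell, under the bound. Lamp5-gated cells (86.3% of genes and 4 of 6 members passed) had little Rab37, 0.0520 ± 0.0104 per cell, and less Sncg than the rest (0.117 against 0.266), both under the bound past the gate. Cplx3 past the Lamp5 gate depended on the setting. It did not pass in the main fit (0.12, adjusted p = 0.403), was at 1.42 with the gate at 10 transcripts (adjusted p = 2.65e-06), and at -0.31 with library size in place of TMM (adjusted p = 0.0449).

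Cells with the opioid peptide genes Penk and Pdyn were low in Cplx3, Rab37 and Sncg. In Penk-gated cells (29894 cells, 82.9% of genes and 6 of 6 members passed) Cplx3 fell by 2.33 (SE 0.16) and Rab37 by 2.30 (SE 0.14), and in Pdyn-gated cells (86.3% of genes and 5 of 6 members passed) they fell by 2.39 (SE 0.16) and 2.95 (SE 0.14), with adjusted p from 8.01e-09 to 2.19e-07. Sncg fell by 1.23 and 1.17. Past both gates these 3 genes were under the bound of 0.128, Cplx3 at 0.0418 and 0.0308 per cell, Rab37 at 0.0776 and 0.0389 and Sncg at 0.119 and 0.101, while in the rest each was above it. With library size in place of TMM Cplx3 was at -2.92 and -3.10, Rab37 at -2.89 and -3.66, and Sncg at -1.82 and -1.88, and Rab37 past the Penk gate was at -2.93 without cells rich in glial and vascular markers. Unc13c past these gates was 4.15 ± 0.282 and 4.13 ± 0.480 per cell, close to the class mean of 4.18, and its direction turned with the scaling, from 0.18 to -0.41 past the Penk gate and from 0.21 to -0.49 past the Pdyn gate. Meis2-gated cells (58102 cells, 79.1% of genes and 6 of 6 members passed) had less Sncg, at -1.59 (SE 0.10, adjusted p = 5.85e-07), and less Rab3b, at -0.84; without cells rich in glial and vascular markers these were -2.31 and -1.52. The calls of Unc13c (0.34) and Cplx3 (0.17, adjusted p = 0.0444) past this gate turned to -0.23 and -0.40 with library size in place of TMM. Rab37 was lower in the Nts-gated, Crh-gated and Calb2-gated cells, by 1.93, 2.32 and 1.65, where 61%, 67.5% and 83.9% of genes and 3, 5 and 6 of the 6 members passed. Its levels there, 0.0938, 0.0675 and 0.130 per cell, lay under or at the bound. In total Rab37 was higher past 2 of the 10 GABA gates, of which the Sst gate did not hold at 10 transcripts, and lower past 8.

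Calb2-gated GABA cells, which make the calcium-binding protein calretinin, had more Rims3, Sncg and Rab3b than the rest. Rims3 rose by 1.26 (SE 0.04, adjusted p = 2.85e-09), from 2.48 to 7.002 ± 0.303 per cell, the highest of any gated GABA population. Sncg rose by 0.85 (SE 0.19, adjusted p = 0.0019) and Rab3b by 0.50 (SE 0.05), while Unc13c was lower by 0.53 and Cplx3 by 1.06, to 0.110 per cell, under the bound.

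Among VGLUT1 neurons the pattern turned on Cplx3 and Rims3. Ccn2-gated cells (5515 cells), Ccn2 being a marker of the deepest cortical layer, had 6.99 ± 0.932 Cplx3 transcripts per cell (sections 5.88 to 8.30) against 0.286 ± 0.0252 in the rest of the class. The difference was 4.44 (SE 0.05, adjusted p = 4.74e-16, higher in 7 of 7), and 5.13 without cells rich in glial and vascular markers. The highest section of any other gated population was 1.81. In the same cells Rab3b rose by 1.41 (SE 0.06, adjusted p = 9.31e-11), Sncg rose by 1.14 (SE 0.08), and Rims3 fell by 1.85 (SE 0.04, adjusted p = 1.495e-13) to 1.99 ± 0.113 per cell. For this gate 82.5% of genes and 5 of 6 members passed.

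Foxp2-gated cells, Foxp2 being a transcription factor of deep-layer neurons that project to thalamus, also had more Cplx3 (1.46 ± 0.218 per cell, 1.59, SE 0.10, adjusted p = 2.59e-08) and more Rab3b (0.98), and the least Unc13c of the 26 populations, 0.330 ± 0.0531 per cell (-1.28, SE 0.07, adjusted p = 4.91e-09). There 88% of genes and 5 of 6 members passed. With library size in place of TMM these differences were 0.94 for Cplx3, 0.32 for Rab3b and -1.94 for Unc13c, and Cplx3 was at 0.76 with the gate at 10 transcripts. Cells marked by genes of upper and middle cortical layers had less Cplx3 and more Rims3 than the rest. Cux2-gated cells (83.2% of genes and 5 of 6 members passed) had Rims3 at 11.04 ± 0.596 per cell (1.21, SE 0.04) and Cplx3 at -1.49 (SE 0.07), or -2.08 without cells rich in glial and vascular markers. Rorb-gated cells (78.1% and 6 of 6) had Rims3 at 0.92 and Cplx3 at -1.58. In Calb1-gated cells (89.7% and 4 of 6) Rims3 was at 1.13 and Cplx3 at -2.06, all with adjusted p of 1.82e-09 or lower. Rab3b fell by 0.94 in Cux2-gated and by 0.99 in Calb1-gated cells. Past each of the Cux2, Rorb, Calb1 and Ccn2 gates Rims3 and Cplx3 differed from the rest in opposite directions. Past the Foxp2 gate Rims3 was at -0.10 (adjusted p = 0.0279), a call that ended with the gate at 10 transcripts (adjusted p = 0.0604) and without anterior replicate 1 or intermediate replicate 2, and it was at -0.75 with library size (adjusted p = 1.81e-10).

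In the remaining VGLUT1 gates Rims3 and Cplx3 were not always opposed. Neurod6-gated cells (88% of genes and 4 of 6 members passed) had more of both Rims3 (0.53) and Cplx3 (0.80) and less Unc13c (-1.06). Fezf2-gated cells (89.4% and 5 of 6) had Rims3 at -0.46 and Rab3b at 0.45, and Cplx3 was at 0.28, at -1.15 with the gate at 10 transcripts (adjusted p = 0.00111) and not called with library size (adjusted p = 0.989). Prox1-gated cells, Prox1 being a transcription factor of dentate gyrus granule cells, were the VGLUT1 population with the most Rab37, 0.329 ± 0.166 per cell against 0.0599 in the rest (2.56, SE 0.19, adjusted p = 1.42e-06), and had less Rims3 (-0.62, or -1.36 with the gate at 10 transcripts). For that gate 62.7% of genes and 5 of 6 members passed, but the calls of Unc13c (0.60), Cplx3 (0.90) and Sncg (0.52) did not hold. With the gate at 10 transcripts they were -0.36, 0.030 and 0.98 (adjusted p = 0.426, 0.958 and 0.160), and without cells rich in glial and vascular markers -0.073, 0.59 and 0.61 (adjusted p = 0.767, 0.155 and 0.119). The Prox1 gate held 1.33% to 1.89% of the VGLUT1 class in anterior and intermediate sections and 2.59% to 4.03% in posterior sections. Prox1 also marked 10266 cells of the VGLUT2 class. Whether the Prox1-gated VGLUT1 cells are granule cells was not tested.

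Among VGLUT2 neurons, gates with more Rab37 and Rims3 had less Rab3b. Prox1-gated cells (10266 of 19661) had 23.0 ± 3.68 Rims3 transcripts per cell against 7.48 ± 0.926 in the rest (1.61, SE 0.09, adjusted p = 5.19e-07) and 1.94 ± 1.23 Rab37 against 0.269 (2.73, SE 0.21, adjusted p = 2.42e-06). Their Rab3b was 0.552 ± 0.538 against 1.88 (-2.18, SE 0.27, adjusted p = 4.56e-05), and Sncg fell by 1.20 (SE 0.11). Each held in 7 of 7 sections. Car4-gated cells, which make a carbonic anhydrase, had the most Rims3 (26.03 ± 4.11 per cell, 1.07, SE 0.04) and the least Rab3b (0.218 ± 0.145, -2.58, SE 0.21, adjusted p = 1.11e-06, or -3.55 without cells rich in glial and vascular markers) of the 26 populations, and Rab37 rose by 1.86 (SE 0.10). The share of genes that passed was 72.6% for the Prox1 gate and 79.3% for the Car4 gate, with 5 of 6 members in each.

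Calb2-gated VGLUT2 cells (8052 cells, 66.7% of genes and 5 of 6 members passed) showed the reverse. Rab3b was 2.03 ± 0.868 per cell against 0.551 in the rest (1.99, SE 0.24, adjusted p = 8.71e-05), Rab37 was 0.247 against 1.75 (-2.72, SE 0.18, adjusted p = 5.05e-06), Rims3 fell by 0.99 (SE 0.08) and Sncg rose by 0.83 (SE 0.19). Htr2c-gated cells (65.5% and 3 of 6) had Rab3b at 1.16, Rab37 at -2.04 and Rims3 at -0.83. Bhlhe22-gated cells (49.3% and 4 of 6) had Rab37 at -2.68. For Rab3b their difference was 1.16 and did not pass with the gate at 10 transcripts (adjusted p = 0.156). Pvalb-gated VGLUT2 cells (575 cells, 18.6% and 2 of 6) had more Unc13c (0.94, SE 0.21, adjusted p = 0.00957). In Calb1-gated cells (58.1%) 1 of 6 members passed, Rims3 at 0.43, which did not pass under library-size scaling (adjusted p = 0.239) or without cells rich in glial and vascular markers (adjusted p = 0.0662), and in Necab1-gated cells, where 41.4% of genes passed, the members lay between -0.53 (Rab37, adjusted p = 0.0755) and 0.51 (Rab3b).

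**Figure D3:**
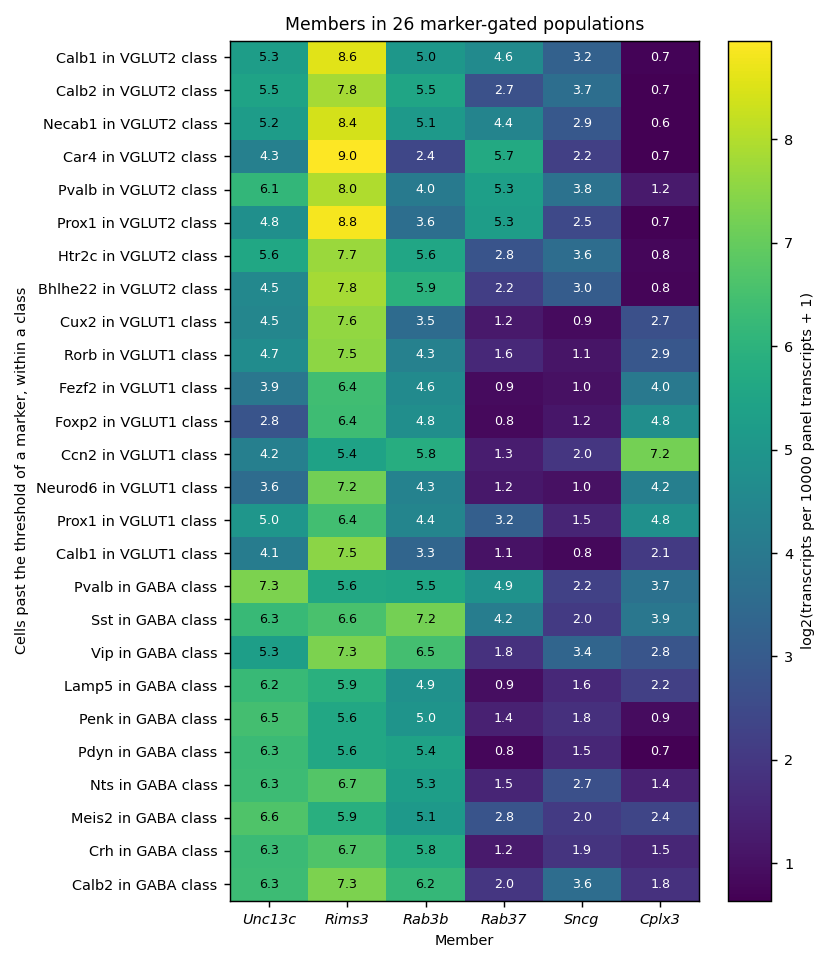
Members (columns) in the cells past each of 26 marker gates (rows), as log2(transcripts per 10000 panel transcripts + 1), the mean of 7 sections, with the value printed in each cell. Cplx3 peaks in Ccn2-gated VGLUT1 cells, Rab3b in Sst-gated GABA cells, Unc13c in Pvalb-gated GABA cells and Rims3 in Car4-gated VGLUT2 cells.

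Levels over the 26 populations, ordered from high to low, mostly formed a gradient in which the section ranges of neighbours overlapped. For Unc13c the top population did not overlap the next, and 9 GABA populations took the first 9 ranks. For Cplx3 the first population did not overlap the next either, and ranks 1 to 5 were VGLUT1 populations. For Rims3 the first 6 ranks were VGLUT2 populations with overlapping ranges. Rab3b led with Sst-gated cells (6.74 to 9.50), whose range overlapped that of Bhlhe22-gated VGLUT2 cells, 0.641 to 7.96. Rab37 in the VGLUT2 populations varied widely between sections, as in Car4-gated cells (0.456 to 5.29) and Prox1-gated cells (0.290 to 3.65), while in Pvalb-gated GABA cells it ran only from 0.913 to 1.31.

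Each member's pattern over the 26 populations was set against every gene of the panel by Pearson's r, as a description: the populations overlap and share sections, depth and panel. The 2 most alike genes that are no members were Kctd12 (r = 0.911) and Cacna2d2 (0.876) for Unc13c, Nell1 (0.909) and Slc17a6 (0.890) for Rims3, and Cntnap4 (0.821) and Slc44a5 (0.795) for Rab3b. They were Sptlc2 (0.895) and Pkib (0.876) for Rab37, Calb2 (0.927) and Angpt1 (0.887) for Sncg, and Rspo2 (0.910) and Hs3st2 (0.859) for Cplx3. Slc17a6 set the VGLUT2 class and Calb2 set 2 of the gates, so those likenesses are in part built in. Among the members themselves r was at most 0.502 (Rims3 with Rab37) and was lowest for Rims3 with Cplx3 (-0.546). No pair of members came as close as each member's own best match.

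Within a class, cells with at least 3 transcripts of a member were set against cells with none of it, and the share of every other gene was compared in each section, without a test because 1 count chose the cells. Of the 18 member and class combinations, 14 could be used. Cells with a member had more transcripts in all, such as a median of 445 against 219 for Rims3 in the VGLUT2 class and 531 against 371 for Rab37 in the GABA class, and the part of this in the ratios was not tested. In the GABA class Rab3b, Sncg and Rims3 were found in the same cells: in cells with Rab3b, Sncg was higher by a median log2 ratio of 2.32 (sections 1.56 to 2.72) and Rims3 by 1.11 (0.90 to 1.26), and in cells with Sncg, Rab3b was higher by 2.27 (1.23 to 2.64), at 10.1 against 1.80 transcripts per cell. Chat, which encodes the enzyme that makes acetylcholine, led the genes of the Sncg cells (4.86, sections 3.17 to 5.43, then Acta2, the smooth muscle actin of vessel walls, 3.62 and Cd44 3.21) and of the Rab3b cells (3.52, 3.14 to 3.80, then Tacr1 2.45 and Ndst4 1.76). Rab37 went with Pvalb. Cells with Rab37 had more Spp1 (5.09), Pln (4.22) and Pvalb (3.22, 45.4 against 3.69 transcripts per cell), more Cplx3 (0.90, 0.16 to 1.96), and less Rims3 (-1.60, -1.96 to -0.99) and Rab3b (-1.20). Cells with Cplx3 had more Ramp3 (3.39), Fign (2.76) and Pln (2.71), and less Rab3b in all 7 sections (-1.59). Cells with Rims3 had more Calb2 (3.16), Cbln4 (2.76) and Npy2r (2.46), and cells with Unc13c had more Ntsr2 (0.93), Pcp4 (0.83) and Ppp1r1b (0.82), with Rab37 at 0.61 (0.44 to 1.06). Ntsr2 is among the astrocyte markers counted above, and Acta2 and Pln are among the vascular markers. The part of transcripts from neighbouring glial and vascular cells in the ratios of these 3 genes was not tested.

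Among VGLUT1 neurons, cells with Cplx3 had more Ccn2 (5.19, 5.12 to 5.29), Nxph3 (3.47) and Sema5b (3.01), more Rab3b (1.49, 1.26 to 1.69), and less Rims3 (-1.59, -1.85 to -1.47), at 2.08 against 6.50 transcripts per cell. In cells with Rab3b, Ccn2 (2.75), Zcchc12 (2.46), Nxph3 (2.36) and Cplx3 (2.22, 1.68 to 2.57) were higher. Cells with Rims3 had more Rspo1 (3.91), Cbln4 (3.43) and Prr16 (1.76), with Cplx3 at -1.93 (-2.72 to -1.75). Unc13c cells had more Ndst4 (2.23), Zcchc12 (1.66) and Arhgap6 (1.498), and Cplx3 at -1.32 (-1.62 to -0.59).

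In the VGLUT2 class, cells with Rab3b had Ebf3 (4.47), Pdyn (3.11) and Sema3a (2.92) as leading genes. Rab37 was lower in them by 3.04 (-3.48 to -2.86), at 0.181 against 1.54 transcripts per cell, Rims3 was at -1.14 (-1.62 to -0.91), and Sncg was higher by 2.49 (0.83 to 3.001). Cells with Sncg led with Pdyn (2.52), Acta2 (2.42), again a vascular marker, and Parm1 (2.25), and had Rab3b at 1.84 (0.76 to 2.85). Cells with Rims3 led with Opn3 (2.75), Ramp3 (2.74) and Prox1 (2.58), and cells with Unc13c with Meis2 (2.20), Cabp7 (2.16) and Ndst4 (2.05). Rab3b and Sncg were thus found together in the VGLUT2 and GABA classes. In the VGLUT1 class, where Sncg lay near the bound on false counts, the ratio of Sncg in Rab3b cells (-0.14, -0.45 to 0.30) cannot show whether they are.

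**Figure D4:**
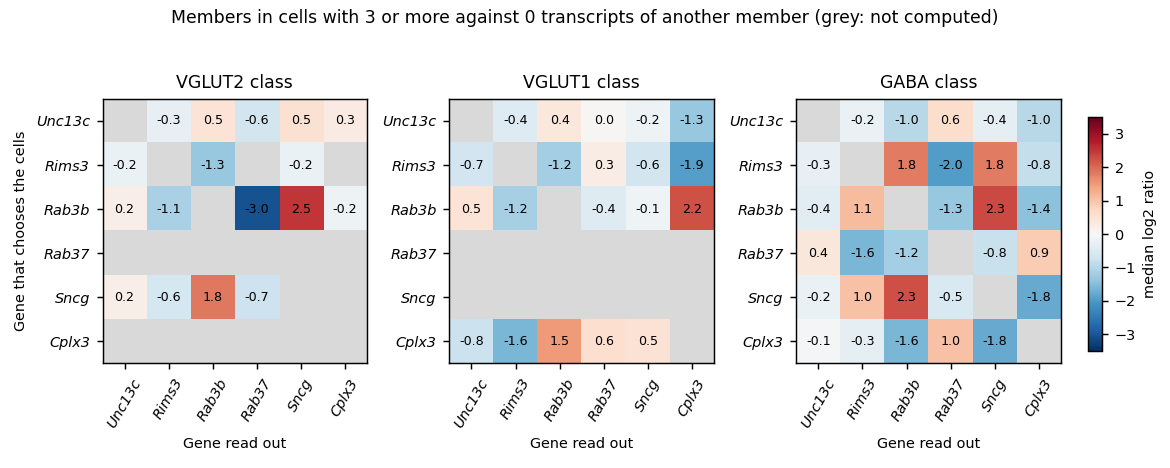
Median log2 ratio over 7 sections of the member in each column, in cells with 3 or more against 0 transcripts of the member in each row, for the VGLUT2, VGLUT1 and GABA classes. Red is higher and blue lower, grey marks combinations not computed. Rab3b with Sncg is red in the VGLUT2 and GABA classes (2.49 and 2.32), and Rab3b with Rab37 is blue in the VGLUT2 class (-3.04).

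Position along the anterior to posterior axis was compared within each class. In edgeR's test none of the 293 genes passed from anterior to posterior sections in the VGLUT2, VGLUT1 or GABA class (0% called in each), nor from anterior to intermediate (0% in each). At an unadjusted p under 0.05, there were 2, 42 and 35 genes from anterior to posterior in the 3 classes, and 0, 1 and 0 from anterior to intermediate. DESeq2 called 0, 15 and 11 genes from anterior to posterior, with no member among them, and none from anterior to intermediate. The interaction of class and position was called for no gene, VGLUT1 against VGLUT2 (0%) or GABA against VGLUT2 (0%), with 13 and 14 genes at an unadjusted p under 0.05, and DESeq2 was not run on it. Without posterior replicate 3, 1 and 3 genes passed, none of them a member.

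Rab37 in the VGLUT2 class had the largest difference of the members. Its level was 0.733 and 0.546 transcripts per cell in the anterior sections, 1.75 and 0.962 in the intermediate sections, and 2.31, 0.176 and 2.13 in posterior replicates 1, 3 and 4. Both anterior sections lay below both intermediate sections and below posterior replicates 1 and 4, while posterior replicate 3 was the lowest of the 7. The posterior minus anterior difference was 1.09 (SE 0.92, adjusted p = 0.997), and 1.61 without posterior replicate 3 (adjusted p = 0.351). Among Prox1-gated VGLUT2 cells alone the sections had a like order, 0.991 and 1.10 anterior, 2.36 and 1.95 intermediate, and 3.65, 0.290 and 3.22 posterior. The share of the VGLUT2 class past the Prox1 gate was 69.7% and 41.2%, 71.1% and 42.5%, and 57.5%, 36.3% and 60.3% in the same order, and its part in the class level was not tested.

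Rab3b in the VGLUT2 class was 0.831 and 1.75 in the anterior sections, 0.552 and 1.38 in the intermediate sections, and 0.472, 2.39 and 0.767 in posterior replicates 1, 3 and 4. It was high where Rab37 was low: posterior replicate 3 was highest, and posterior replicate 1 was lowest. The difference was -0.08 (SE 0.81, adjusted p = 0.997), -1.21 without posterior replicate 3 (adjusted p = 0.649), and -1.57 on slide 1 alone (adjusted p = 0.999). Replicate 2 was higher than replicate 1 at the anterior and at the intermediate position. The share past the Calb2 gate, in which Rab3b is high, was 33.7% and 53.1%, 21.9% and 52.2%, and 32.6%, 54.6% and 27.1% in the same order, higher in each section in which Rab3b was above 1, and its part was not tested. Fewer cells of a kind and less RNA per cell cannot be told apart in such class means.

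**Figure D5:**
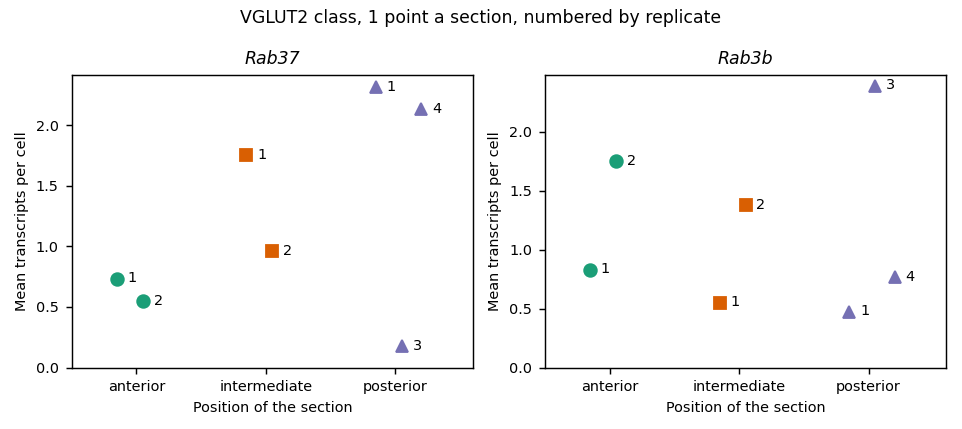
Mean transcripts per cell of Rab37 and Rab3b in the VGLUT2 class (vertical axes, linear from 0) in each section, by position, with the replicate number beside each point. Posterior replicate 3 is the lowest of 7 for Rab37 (0.176) and the highest for Rab3b (2.39).

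Sections with the same replicate number deviated together, and with the replicate number as a block some members passed. In the GABA class, posterior minus anterior, 4 of 6 members passed beside 38 of 293 genes: Rab3b at -0.39 (adjusted p = 8.99e-06), Rab37 at 0.56 (adjusted p = 0.000113), Cplx3 at 0.52 (adjusted p = 0.00892) and Rims3 at -0.22 (adjusted p = 0.0221). Without the block these were -0.12, 0.32, 0.38 and -0.09, with adjusted p from 0.629 to 0.779. Rab37 passed with the block from anterior to intermediate too, at 0.39 (adjusted p = 0.00187), among 9 genes. In the VGLUT1 class Rims3 passed at -0.18 (adjusted p = 0.0102), among 67 genes, against -0.17 (adjusted p = 0.192) without it. In the VGLUT2 class no gene passed with the block, Rab37 being at 1.34 and Rab3b at -0.96 (adjusted p = 0.132 each). Posterior replicates 3 and 4 share their number with no other section, so the posterior side of the blocked contrast rests on posterior replicate 1 alone, with 1 residual degree of freedom.

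Rab37 and Cplx3 of the GABA class were 0.292, 0.236, 0.407, 0.312, 0.471, 0.218 and 0.367 and 0.166, 0.132, 0.213, 0.138, 0.270, 0.120 and 0.231 transcripts per cell, from anterior replicate 1 to posterior replicate 4, with Cplx3 near the bound on false counts. Within replicate 1 the order was anterior, intermediate, posterior for each gene, and posterior replicate 3 was again the lowest. The share of the GABA class past the Pvalb gate, in which both genes are high, was 23.2%, 18.6%, 27.9%, 19.0%, 31.3%, 17.0% and 25.3% in the same sections, highest in posterior replicate 1 and lowest in posterior replicate 3, and its part in these values was not tested. Leaving out Rab37 in the VGLUT2 class, the members' posterior minus anterior differences lay between -0.31 (Sncg) and 0.47 (Unc13c) in the VGLUT2 class, between -0.17 (Rims3) and 0.14 (Rab37) in the VGLUT1 class, and between -0.22 (Sncg) and 0.38 (Cplx3) in the GABA class.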

How the data were processed

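Transcripts were imaged by Xenium in situ on fresh-frozen hemisections, per the labels' protocols. The authors' deposited table gives each segmented cell a raw count of transcripts for every gene, and cell sums equalled the deposited totals in 100% of cells. The submitters' processing notes name Seurat. The sources used here do not give the segmentation, decoding or cell filters, and no doublet caller was run. Of 297 symbols, 296 matched RefSeq.

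Members, lists and gates were chosen with earlier results of these data known. Counts were summed per section and class (21 sums) or gate (14 sums) and tested with edgeR 4.0.16 (R 4.3.3, TMM, low-count filter, quasi-likelihood, Benjamini-Hochberg at 0.05), with DESeq2 1.42.0 as an alternative, and the script was tested on simulated data. All members are named in every comparison, 2 genes per member by likeness, and 3 genes per member and class by co-occurrence. Aldh1l1, Mog and Inpp5d were not analysed here.

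Replicate numbers are those of the labels, which do not say what they mark. Deviations from the position means correlated between same-numbered sections (r = 0.332 to 0.870 over 4 pairs in 3 classes, where the value of the second pair of anterior and intermediate sections equals that of the first by construction). With every pair above 0.1 they were treated as paired in the blocked fit.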

Additional observations from a re-analysis of the deposited data

Results flagged for a closer look

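Rab37 in the VGLUT1 class was 0.0923 transcripts per cell in posterior replicate 4, apart from the other 6 sections: its gap to the next section was 0.657 of the whole range, above Dixon's critical value of 0.568 for 7 sections. Of 18 member and class groups examined this was the 1 found, and chance gives about 1 in 20. The mean bound on the false count of a probe in that class was 0.0474.

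For 24 pairs of a member and a marker that gated more than 1 class, the log2 ratio of its share of panel transcripts past the gate to that in the rest was compared between classes in every section. In 3 pairs every section of one class was above 0 and every section of the other below 0, and the difference itself was not tested. The same count was not made for the other genes of the panel, so it cannot be said whether 3 of 24 is many. Rims3 past the Calb2 gate had a median of -0.92 (sections -1.14 to -0.74) in the VGLUT2 class and 1.33 (1.08 to 1.47) in the GABA class, a difference of -2.25. Rims3 past the Prox1 gate was at 1.21 (0.91 to 1.39) in the VGLUT2 class and -0.67 (-1.15 to -0.09) in the VGLUT1 class, a difference of 1.87. Unc13c past the Prox1 gate was at -1.01 (-1.93 to -0.55) in the VGLUT2 class and 0.48 (0.10 to 0.94) in the VGLUT1 class, a difference of -1.50. The edgeR call of Unc13c in the VGLUT1 class ended with the gate at 10 transcripts (adjusted p = 0.426) and without cells rich in glial and vascular markers (adjusted p = 0.767).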

How the results depend on the processing

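The 17 member differences between classes other than Rab3b from VGLUT2 to VGLUT1 gave 323 values over 19 alternatives, of which 322 kept their direction and call. The exception was Sncg from VGLUT2 to GABA with class thresholds of 3 transcripts (-0.21, adjusted p = 0.0689). Rab3b from VGLUT2 to VGLUT1, not called in any setting, was -0.11 with library size, -0.060 scaled by cells, -0.22 with thresholds of 10, -0.032 in cells of at least 200 transcripts, -0.17 with no block, -0.0017 with the replicate block in place of the section, -0.044 in DESeq2, and -0.15 to 0.28 leaving out 1 section each.

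From anterior to posterior in the VGLUT2 class, Rims3 was at 0.015 with slide as a term and 0.024 on slide 1 only. Leaving out 1 section each gave -0.41 to 0.079 for Rims3, -1.21 to 0.44 for Rab3b and -0.19 to 0.069 for Cplx3. In the VGLUT1 class 67 genes passed with the replicate block, 6 on slide 1 only, 15 in DESeq2 and 0 to 11 leaving out 1 section each, the 11 being without posterior replicate 4. There the replicate block gave 0.057 for Unc13c, -0.18 for Rims3, 0.0027 for Rab3b, -0.030 for Rab37 and -0.038 for Sncg, Unc13c was at 0.033 with mixed cells kept, and Rab37 was at -0.11 without cells rich in glial and vascular markers. Leaving out 1 section each gave -0.20 to 0.19 for Unc13c, -0.13 to 0.026 for Rab3b, -0.0012 to 0.30 for Rab37, -0.064 to 0.23 for Sncg and -0.34 to 0.10 for Cplx3. In the GABA class 38 genes passed with the replicate block, 3 with mixed cells kept and 11 in DESeq2, and Unc13c was at 0.052 with slide as a term and 0.075 on slide 1 only. The replicate block gave -0.22 for Rims3, -0.39 for Rab3b, 0.56 for Rab37 and 0.52 for Cplx3, and 9 genes from anterior to intermediate. Apart from the calls given here and in the report, it changed no other call of a member. The interaction of class and position passed for 1 and 3 genes without posterior replicate 3. The cause of these changes was not tested.

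Of 156 member and gate pairs, 115 passed, against 126 with library size (105 of them shared and alike in direction, 5 opposite), 109 with gate thresholds doubled (98 and 1), 113 without cells rich in glial and vascular markers (100 and 3), and 111 to 117 leaving out 1 section each. Of 50 called pairs beyond 1 log2 unit, 47 kept call and direction in all 10 settings. Among all genes 18.6% to 89.7% passed by gate, and how many of them kept their calls was not counted. False counts limit Cplx3 in the VGLUT2 and GABA classes, Rab37 and Sncg in the VGLUT1 class, and the 26 gate pairs with a mean under the bound.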
